A study of Mus musculus with 22 samples.

Results

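Arterial smooth muscle cells sorted from mouse kidney were compared with those sorted from mouse intestine, across all genes of the deposited table. The comparison takes 7 of the 22 libraries of the series, 3 labelled kidney and 4 labelled intestine, and 15039 of 28099 genes had enough signal to be tested. All 7 libraries carry the genotype Cspg4-Dre/Acta2-CreERT/R26-GFP, in which a Dre recombinase under Cspg4 control and a tamoxifen-inducible Cre under Acta2 control act on a green fluorescent reporter, and cells were collected by flow sorting. Both groups received tamoxifen in corn oil by intraperitoneal injection on 3 days (0.75 mg for every 10 g of weight), so neither is untreated. Up to 10 ng of RNA from each sample entered SMART-Seq v4, which amplifies whole transcripts from little RNA. The labels name the tissue but neither age nor vessel size. Nor do they say whether each library had its own animal, so the p-values below rest on a spread between samples that may be technical alone. Bladder and stomach libraries of the same genotype, 3 of each, serve below as a second pair of a urogenital and a gut tissue.

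Smooth muscle of small arteries sets vessel tone through receptors for hormones and transmitters, ion channels and gap junctions that act on a shared contractile apparatus. In the kidney, cells of the afferent arteriole can make the protease renin, which starts the angiotensin cascade, and renal mural cells arise from Foxd1-positive stromal progenitors. In the gut, mesenchyme forms under Hedgehog signals from the epithelium with the forkhead factors Foxf1 and Foxf2. Hox genes, arranged in 4 clusters, mark position along the body axis, with higher paralogue numbers farther back.

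The smooth muscle genes Acta2 and Myh11 were present in every library, and their signal did not separate the groups. Values throughout are deposited signal, that is, read counts scaled per library. Acta2, smooth muscle alpha-actin (ENSMUSG00000035783, mm39 chromosome 19, 34218490 to 34232990), was at 1662, 2237 and 3440 in kidney 1, 2 and 3 and at 1485, 1376, 1343 and 1782 in intestine 1 to 4. Myh11, smooth muscle myosin heavy chain, was at 6075, 7853 and 13518 in kidney and at 5975, 5338, 5350 and 6076 in intestine. The groups overlapped for both genes, and neither passed the test (adjusted p = 0.0601 for Acta2 and 0.0806 for Myh11, limma with Benjamini-Hochberg adjustment). Cspg4, the mural cell proteoglycan NG2, was at 2321, 65 and 2542 in kidney and at 1218, 1512, 1146 and 1038 in intestine, so kidney 2 lay far below every other library while the other kidney libraries lay above all 4 from intestine. Its log2 fold change was -0.74 (adjusted p = 0.655) with kidney 2 and 0.997 (adjusted p = 0.00189) without it.

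Kidney 2 also stood apart in other ways. With tested genes split by exonic length into 3 classes of equal size, its median log2 difference from the mean of the other kidney libraries was -0.44 for the longest and 0.48 for the shortest, and its summed endothelial marker signal was 18260 against 9875 to 10346 in those. Signals rested on 4943883 to 12475405 rebuilt reads in kidney and 9176819 to 12708448 in intestine, with 1 read worth the most, 1.1337, in kidney 3. Many strongly expressed genes were held near a fixed number of reads whatever the library, so that their signal follows the worth of 1 read, and those with at least 0.5 reads for each exonic base in any of the 7 libraries are called near the read ceiling below (2353 of 14839 tested genes of known length). The signal of Acta2 and Myh11 was highest in kidney 3 and intestine 4, where 1 read was worth the most in each tissue. Overlap in genes whose signal follows the worth of 1 read does not show equal expression. Pearson correlations of log2 signal ran from 0.894 to 0.926 between kidney libraries, 0.957 to 0.975 between intestine libraries and 0.676 to 0.714 across the groups.

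Of the genes tested, 4432 (29.5%) were called at an adjusted p under 0.05, with 1814 (12.1%) higher and 2618 (17.4%) lower in kidney, and the median log2 fold change was -0.07. In all, 5434 genes (36.1%) had groups that did not overlap. A gene list is read against these shares. With kidney 1, 2 or 3 left out in turn, the share called higher over all genes was 11.8%, 14.9% and 11.8% and the share called lower 17.3%, 21.2% and 16.3%. With intestine 1, 2, 3 or 4 left out, 10.0%, 9.45%, 9.32% and 10.3% were called higher and 14.0%, 13.5%, 13.2% and 14.3% lower. Among genes under the ceiling, 27.9% were called, 10.7% higher and 17.2% lower. Each library is a sorted population as a whole, so fewer cells of a type and less RNA per cell cannot be told apart in any of these values.

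**Figure D1:**
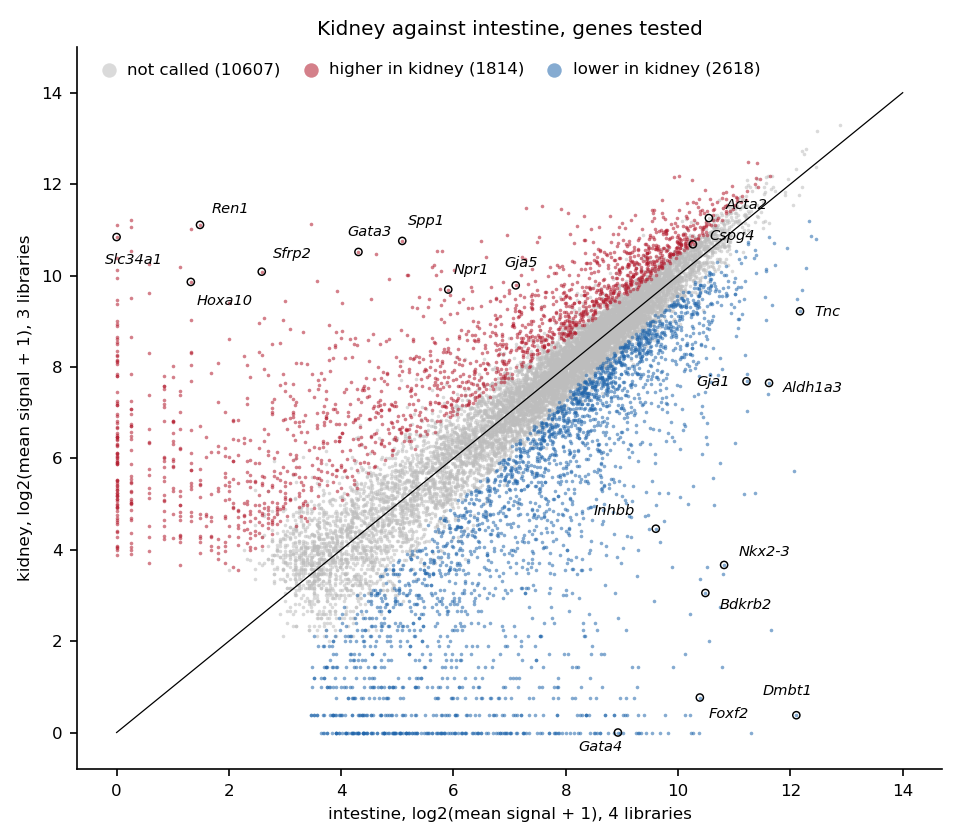
Mean signal of each tested gene in intestine (x axis, 4 libraries) and kidney (y axis, 3 libraries), both as log2(mean signal + 1), with the line of equal signal. The 1814 red genes were higher and the 2618 blue genes lower in kidney; Ren1 sits near the intestine zero, Foxf2 and Gata4 near the kidney zero, and Acta2 and Cspg4 near the line.

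Posterior Hox genes separated the tissues. Of 16 listed genes of paralogue groups 9 to 13, 10 were tested and all 10 were higher in kidney, with a median log2 fold change of 7.09, or 6.79 with the 5 genes at 0 in intestine set to their lower bound. Genes near 0 in intestine could have enough signal to be tested only through kidney. The direction of those tested was therefore largely fixed beforehand, and the 12.1% of all genes called higher is not a like measure. With no lower limit on signal, 10 of 13 tested were higher. Hoxa10 (ENSMUSG00000000938, chromosome 6, 52208177 to 52217834) was at 831, 1115 and 838 in kidney and at 0, 6, 0 and 0 in intestine, a log2 fold change of 9.14 ± 0.69 (SE; adjusted p = 1.03e-05). Hoxa9, its neighbour, was at 532, 575 and 463 in kidney and again above 0 in intestine 2 alone, at 6 (8.33 ± 0.70, adjusted p = 1.96e-05). Hoxc10 was at 274, 356 and 213 in kidney and at 0 in every intestine library, at least 197-fold higher against a floor of 3 reads per library (adjusted p = 8.84e-07). Hoxc9 gave 156, 232 and 138 against 0 in all 4, at least 123-fold higher (adjusted p = 1.89e-06). The summed signal of the 15 group members in the table was 2557 to 3426 in kidney and 9 to 24 in intestine. The most posterior genes were at or near 0 in both tissues: Hoxd13 was at 0 in all 7 libraries and Hoxa13 was above 0 only in kidney 2, at 9 (both named after their values were seen).

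Hox genes of groups 1 to 8 did not move one way. Of 19 tested, 7 were higher and 7 lower in kidney, their summed signal overlapped between the groups (2038 to 2716 in kidney, 1975 to 2535 in intestine), and their median log2 fold change was -0.52. Within the A cluster the genes named here differed in sign, and an order along the cluster was not tested. Hoxa2 (8, 15 and 19 in kidney; 146, 119, 87 and 119 in intestine; -3.04 ± 0.38, adjusted p = 0.000239) and Hoxa4 (11 in each kidney library; 132, 168, 157 and 173 in intestine; -3.72 ± 0.30, adjusted p = 1.44e-05) were lower. Hoxa7, named after its values were seen, was higher, at 193, 307 and 214 against 26, 43, 32 and 30 (2.82 ± 0.31, adjusted p = 0.000107). In the C cluster Hoxc8 was higher in kidney, at 102, 168 and 85 against 10, 3, 3 and 15 (3.97 ± 0.58, adjusted p = 0.000606). In the D cluster, where Hoxd8 had the highest mean of the list (560, 916 and 1000 in kidney; 180, 266, 153 and 117 in intestine), Hoxd8 and Hoxd4 were both higher (2.22 ± 0.31 and 3.58 ± 0.46, adjusted p = 0.000431 and 0.000266). Hoxc6, the other member with a high mean, was at 290, 273 and 252 in kidney and 141, 213, 164 and 214 in intestine, and did not pass (adjusted p = 0.0815).

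**Figure D2:**
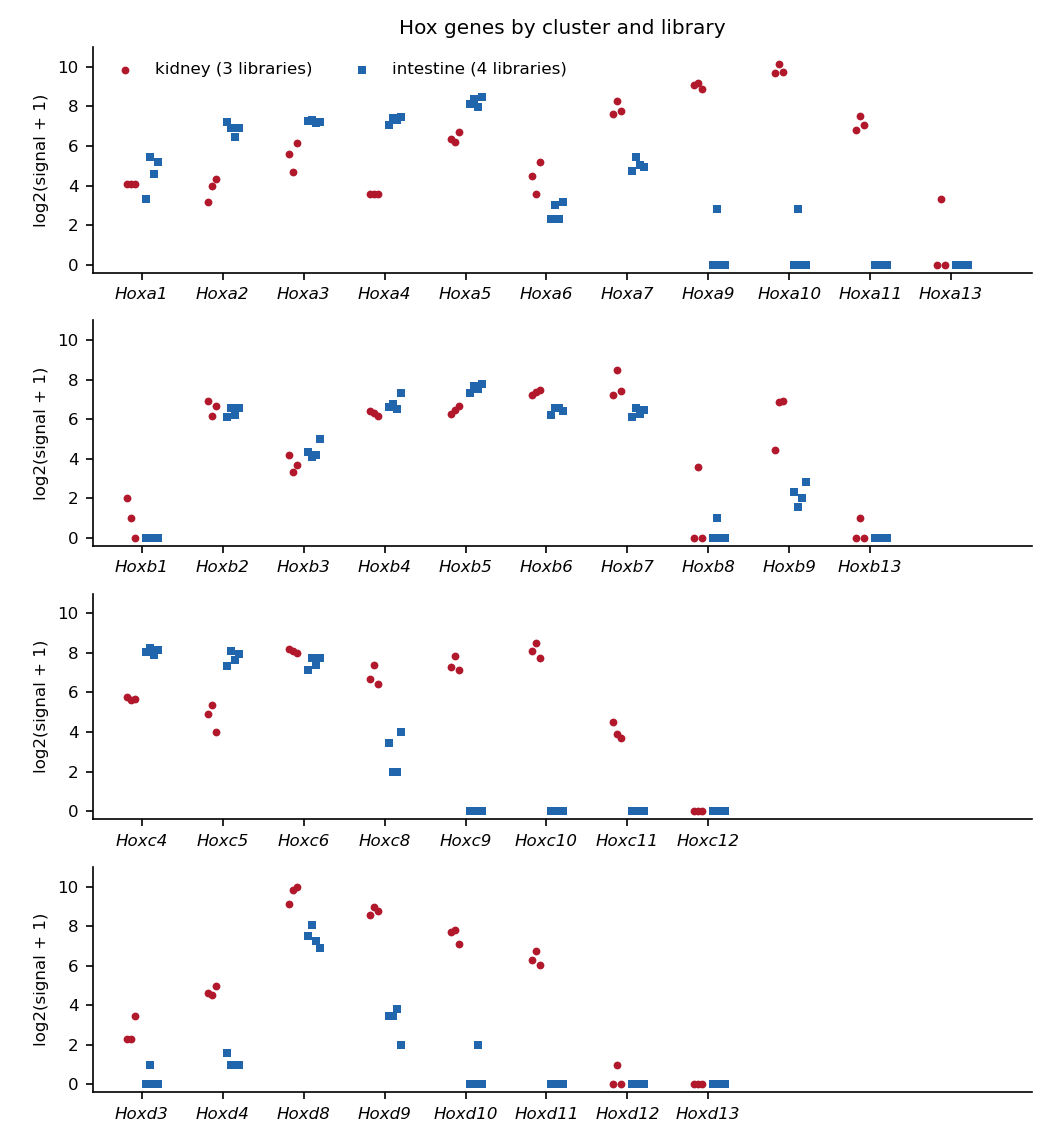
Signal of each Hox gene in the table as log2(signal + 1), 1 point per library, with kidney as red circles and intestine as blue squares, in 1 panel per cluster from low to high paralogue number. In each cluster intestine drops to or near 0 at group 9 and beyond. The 10 genes tested there, which had enough signal to be tested mainly through kidney, stay above 0 in kidney libraries.

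Of the transcription factors that build gut mesenchyme, 14 of 16 tested were lower in kidney, none was higher, and the median log2 fold change was -5.15. Foxf2 (ENSMUSG00000038402, chromosome 13, 31809799 to 31815386) was at 1225, 1325, 1202 and 1601 in intestine and at 0, 0 and 2 in kidney. Those 2 kidney reads give a ratio of 2010, with a 95% counting interval of 556 to 16600 (adjusted p = 3.21e-07). Gata4, a zinc finger factor of endoderm-adjacent mesenchyme and heart, was at 418, 359, 646 and 522 in intestine and at 0 in every kidney library, at least 216-fold lower (adjusted p = 2.39e-07). Nkx2-3, a homeobox factor of midgut and spleen mesenchyme, was at 1758, 1710, 1612 and 2144 in intestine and at 0, 7 and 28 in kidney (-8.19 ± 0.88, adjusted p = 8.84e-05). Barx1, known from stomach mesenchyme, varied more within intestine, at 350, 22, 212 and 330, and was at 1, 0 and 0 in kidney (adjusted p = 0.000267). Tcf4, a broadly expressed basic helix-loop-helix factor with the highest mean of the list, differed less, at 966, 846 and 1133 against 1963, 2248, 1877 and 2141 (-1.07 ± 0.15, adjusted p = 0.000458), and Zeb2 overlapped between the groups (adjusted p = 0.411).

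Kidney stroma and urogenital factors were mixed, with 11 of 22 tested higher and 4 lower in kidney and a median log2 fold change of 0.91. Foxd1, which marks the stromal progenitors of renal mural cells, was at 97, 341 and 260 in kidney and at 0, 1, 0 and 8 in intestine (6.64 ± 0.81, adjusted p = 0.000192). Gata3 was at 1531, 1511 and 1346 against 32, 18, 17 and 8 (6.36 ± 0.40, adjusted p = 2.87e-06). Ebf1, a factor of pericytes and B cells, was at 2806, 1922 and 2267 against 661, 751, 817 and 735 (1.64 ± 0.17, adjusted p = 6.12e-05). Pax8, a nephron epithelium factor, was at 174, 953 and 374 against 4, 5, 8 and 2 (6.22 ± 0.60, adjusted p = 4.6e-05), highest in kidney 2. Six2, a nephron progenitor factor, went the other way, at 1, 1 and 0 in kidney and 118, 9, 67 and 56 in intestine (-4.87 ± 0.79, adjusted p = 0.00117). Tbx2, with the highest mean of the list, did not pass (adjusted p = 0.0985).

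Ren1, which encodes renin (ENSMUSG00000070645, mm39 chromosome 1, 133278248 to 133288063), was at 1345, 1934 and 3337 in kidney and at 2, 2, 3 and 0 in intestine, a log2 fold change of 9.71 ± 0.53 (adjusted p = 1.33e-06). The groups did not overlap, and the gene was near the read ceiling in kidney. Its proximal promoter is shown because in renin-expressing cells an element there is known to be bound by Hox proteins together with Pbx partners. The RefSeq window of GRCm38.p6, an older build than the mm39 coordinates of the table, runs from position -250 to 50 around the annotated start, on the plus strand at chr1:133350424-133350723. Capitals mark TGATTNAT, a general Hox and Pbx consensus searched on both strands and found once, on the strand opposite to that printed, from position -63 to -56.
Ren1 promoter: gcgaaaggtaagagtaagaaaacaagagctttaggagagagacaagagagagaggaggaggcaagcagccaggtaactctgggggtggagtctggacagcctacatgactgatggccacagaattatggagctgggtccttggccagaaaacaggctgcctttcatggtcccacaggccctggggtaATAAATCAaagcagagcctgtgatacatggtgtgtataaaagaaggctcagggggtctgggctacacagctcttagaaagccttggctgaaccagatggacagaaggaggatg
The same letters occur in 1051 of 32544 promoter windows of this length (3.23%). The match describes the sequence only, and binding was not measured here.

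Of 15 renin-angiotensin genes tested, 7 were higher and 5 lower in kidney. Of the 15, 6 were near the read ceiling, and under it 3 of 9 were higher and 4 lower. Akr1b7, an aldo-keto reductase found in renin cells, was at 722, 857 and 1264 in kidney and 9, 12, 12 and 10 in intestine (6.30 ± 0.31, adjusted p = 6.56e-07). Enpep, aminopeptidase A, which cleaves angiotensin II, was at 2694, 2443 and 2477 against 540, 431, 563 and 235 (2.60 ± 0.28, adjusted p = 9.16e-05). Mas1, the receptor for angiotensin 1-7, was low but higher in kidney, at 33, 28 and 11 against 0, 1, 2 and 0 (3.86 ± 0.63, adjusted p = 0.00114). Agt, the angiotensinogen substrate of renin, was the reverse of Ren1: 49, 142 and 73 in kidney and 1394, 1355, 1302 and 1732 in intestine (-4.15 ± 0.32, adjusted p = 1.05e-05). The angiotensin II receptors Agtr1a and Agtr1b were named after their values were seen. Agtr1a was at 1468, 1057 and 1262 against 381, 482, 295 and 338 (1.76 ± 0.21, adjusted p = 0.000152), while Agtr1b, at 326, 173 and 125 against 337, 384, 274 and 252, did not pass (adjusted p = 0.151). Atp6ap2, the prorenin receptor, also did not pass (adjusted p = 0.261).

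Receptors split between the tissues. Among peptide hormone receptors 6 of 21 tested were higher and 8 lower in kidney; among adrenergic and dopamine receptors 3 of 10 were higher and 3 lower; among lipid, nucleotide and amine receptors 9 of 33 were higher and 13 lower. Under the read ceiling 3 of 12 peptide hormone receptors were higher and 6 lower. In the lipid, nucleotide and amine list 7 of 28 under it were higher and 12 lower. No adrenergic or dopamine receptor tested was near it. On the kidney side, Npr1, the natriuretic peptide receptor that makes cyclic GMP, was at 910, 867 and 702 against 64, 53, 50 and 69 (3.79 ± 0.23, adjusted p = 2.18e-06). Adra1a, a constrictor receptor for noradrenaline, was at 545, 345 and 330 against 62, 45, 95 and 67 (2.59 ± 0.31, adjusted p = 0.000191). Drd1, the dopamine receptor linked to renal vasodilatation, was at 563, 259 and 331 against 112, 112, 146 and 90 (1.68 ± 0.30, adjusted p = 0.00219). These 3 genes were under the ceiling, and no kidney library overlapped intestine. S1pr3, a sphingosine-1-phosphate receptor, was at 3207, 4286 and 5656 against 1280, 1242, 1206 and 1113 (1.82 ± 0.19, adjusted p = 6.88e-05), and P2rx1, the ATP-gated channel of arterial muscle, at 2062, 2830 and 2926 against 1217, 1314, 1312 and 1512 (0.95 ± 0.16, adjusted p = 0.00161). P2rx1 signal was highest in kidney 3 and intestine 4, where 1 read was worth the most in each tissue. How far its difference follows that worth was not tested. Adra2c rested more on kidney 2, at 93, 359 and 85 against 27, 9, 14 and 29 (2.92 ± 0.59, adjusted p = 0.00438). Glp1r, the receptor of glucagon-like peptide 1, named after its values were seen, was at 3251, 1472 and 2859 in kidney and spread widely in intestine, at 744, 105, 282 and 147 (3.32 ± 0.58, adjusted p = 0.00187). The calls of Adra1a, Drd1, P2rx1, Adra2c and Glp1r were lost in the joint fit of all 22 libraries.

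On the intestine side, both bradykinin receptors were near 0 in kidney. Bdkrb2 was at 1392, 1537, 1370 and 1434 in intestine and 2, 11 and 9 in kidney (-7.65 ± 0.43, adjusted p = 1.62e-06). Bdkrb1 was at 79, 86, 92 and 97 against 2, 0 and 0 (-5.95 ± 0.49, adjusted p = 1.85e-05). Galr2, a galanin receptor, was at 93, 61, 73 and 86 against 1, 2 and 10 (-4.28 ± 0.58, adjusted p = 0.000365). Single receptors for nucleotide, leukotriene, histamine and acetylcholine signals were lower in kidney as well. P2ry1, an ADP receptor, was at 764, 774, 737 and 535 against 21, 50 and 7 (-5.07 ± 0.52, adjusted p = 6.67e-05), and Cysltr1 at 285, 267, 288 and 143 against 9, 9 and 3 (-5.01 ± 0.44, adjusted p = 2.59e-05). Hrh1, at 229, 342, 242 and 272 against 6, 29 and 3, was lower by a similar amount (-4.83 ± 0.60, adjusted p = 0.000214). Chrm2, the M2 muscarinic receptor, was at 226, 86, 148 and 58 against 0, 1 and 1, where 3 kidney reads give a ratio of 194 with a 95% counting interval of 66.5 to 942 (adjusted p = 2.79e-05). Adra2a, at 390, 497, 367 and 355 against 130, 53 and 99, had the opposite sign to Adra2c (-2.17 ± 0.31, adjusted p = 0.000516). The endothelin receptors, the strongest of their list, overlapped: Ednra was at 2488, 1733 and 2208 in kidney and 2348, 2393, 2178 and 2096 in intestine (adjusted p = 0.726), and Ednrb had an adjusted p of 0.162.

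Among 21 tested genes of cyclic nucleotide relaxation, 2 were higher and 6 lower in kidney. That balance turned without kidney 2, when 7 were higher and 5 lower, and 1 was higher without kidney 1 or intestine 4. Pde1c, a calmodulin-dependent phosphodiesterase, was at 381, 545, 412 and 245 in intestine and 1, 0 and 6 in kidney (-7.31 ± 0.61, adjusted p = 1.96e-05), and its relative Pde1b was at 891, 893, 789 and 775 against 387, 78 and 253 (-2.08 ± 0.44, adjusted p = 0.00563). Prkar2b, a regulatory subunit of protein kinase A, was also lower (-2.14 ± 0.23, adjusted p = 9.38e-05), while Gucy1a1, the nitric oxide receptor subunit with the highest mean, did not pass (adjusted p = 0.215). RGS proteins, which shorten G protein signals, were split 5 to 5 over 14 tested. Rgs5, at 3661, 5236 and 8095 against 3042, 2460, 2595 and 2682, was higher in kidney near the ceiling (1.00 ± 0.23, adjusted p = 0.00935), and Rgs10, at 8, 15 and 16 against 348, 251, 282 and 366, was lower under it (-4.52 ± 0.33, adjusted p = 7.73e-06).

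Potassium channels were split, 9 higher and 8 lower of 30 tested. Kcna5, a voltage-gated channel of arterial muscle, was at 2157, 1641 and 1998 in kidney and 472, 395, 478 and 608 in intestine (1.99 ± 0.18, adjusted p = 3.58e-05). Kcnj2, an inward rectifier, was at 498, 54 and 514 against 28, 17, 16 and 13, with kidney 2 low but above intestine (3.69 ± 0.73, adjusted p = 0.00364). Kcnj16, an inward rectifier of renal epithelium as well, was at 216, 173 and 579 against 0 in all 4 intestine libraries, at least 226-fold higher (adjusted p = 2.83e-06), and Kcnj15 at 248, 64 and 288 against 17, 0, 8 and 3 (5.05 ± 0.93, adjusted p = 0.0025). Nephron markers were also higher in kidney, as given below, and their part in both differences was not tested. Kcnn3, a small-conductance calcium-activated channel, was the reverse, at 14, 13 and 68 against 607, 598, 471 and 474 (-4.46 ± 0.51, adjusted p = 0.000126). Of 42 calcium handling genes tested, 13 were higher and 10 lower. Trpc4, a cation channel, was higher at 326, 100 and 146 against 48, 6, 14 and 13 (3.37 ± 0.65, adjusted p = 0.00327). Orai2, a store-operated channel subunit, was lower at 32, 29 and 14 against 285, 374, 327 and 279 (-3.68 ± 0.33, adjusted p = 2.87e-05), as was Itpr3, an inositol trisphosphate receptor (-3.05 ± 0.42, adjusted p = 0.000401). Without kidney 2 the calcium list held 20 higher members, against 14.9% of all genes.

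Gap junction subunits differed in both directions. All 7 connexin and pannexin genes tested had groups that did not overlap, against 36.1% of all genes, with 3 higher and 3 lower in kidney. Of the 7, 4 were near the read ceiling, and under it 1 of 3 was higher and 1 lower. Gja5, connexin 40, which couples renin cells to their neighbours, was at 1023, 721 and 899 against 193, 131, 142 and 82 (2.73 ± 0.29, adjusted p = 8.01e-05), and Gja4, connexin 37, at 1181, 1703 and 1425 against 691, 671, 639 and 777 (1.04 ± 0.17, adjusted p = 0.00111). Gja1, connexin 43, was at 229, 156 and 229 in kidney and 2476, 2431, 2210 and 2412 in intestine (-3.56 ± 0.18, adjusted p = 6.79e-07). Panx1, a pannexin, at 46, 151 and 79 against 232, 402, 353 and 359, was lower too (-2.0 ± 0.38, adjusted p = 0.00315).

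**Figure D3:**
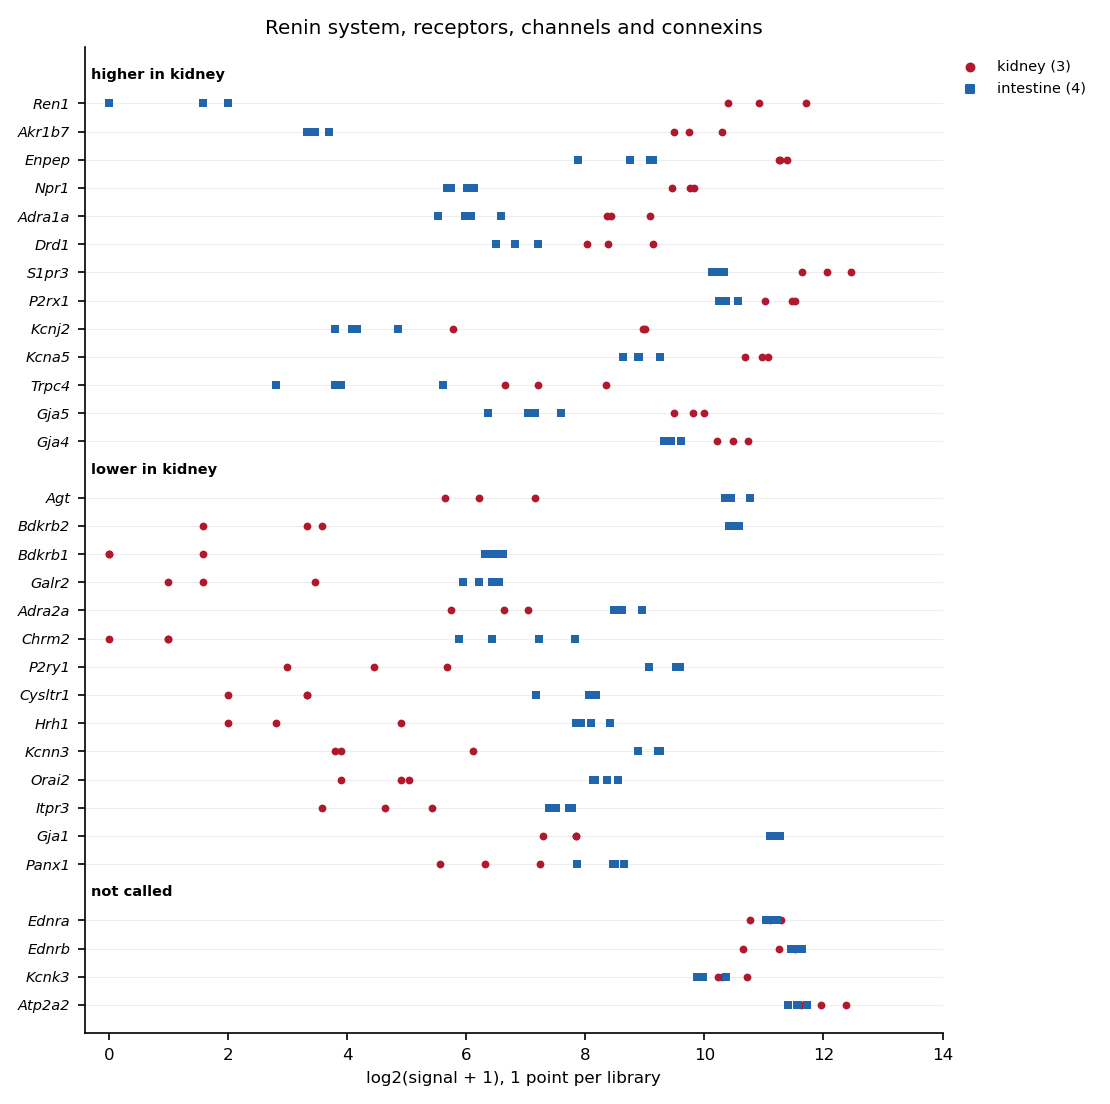
Signal of renin system genes, receptors, channels and connexins as log2(signal + 1), 1 point per library, with kidney as red circles and intestine as blue squares, grouped by call. Ren1 and Bdkrb2 show the widest gaps in their groups, and for Ednra, Ednrb, Kcnk3 and Atp2a2 the tissues overlap.

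Of 40 contractile and cytoskeletal genes tested, 8 were higher and 3 lower, together close to the share over all genes. Their median log2 fold change was 0.48, and 30 of the 40 were near the read ceiling. The count called higher rested on single libraries, at 21 without kidney 1 and 5 without intestine 2 or intestine 3. Summed signal was 74709 to 111171 in kidney, highest in kidney 3, and 60221 to 70341 in intestine. Under the ceiling 1 of 10 tested was higher and 2 lower. Ldb3, a Z-band protein, was at 1830, 1606 and 1822 in kidney and 324, 252, 349 and 346 in intestine (2.47 ± 0.17, adjusted p = 5.63e-06). Actg2, the actin typical of visceral muscle, was at 273, 428 and 235 against 1193, 1073, 1060 and 1433 (-1.97 ± 0.23, adjusted p = 0.000132), and Pgm5, an adhesion protein, at 15, 25 and 41 against 176, 171, 195 and 237 (-2.90 ± 0.36, adjusted p = 0.000224). Among regulators of the smooth muscle programme, 3 of 17 tested were higher and 3 lower, with 5 higher without kidney 2 and 1 lower without intestine 1, 2 or 4. Prdm6, a smooth muscle repressor, was at 339, 488 and 203 against 15, 9, 22 and 9 (4.55 ± 0.44, adjusted p = 4.52e-05), and Mef2c at 3705, 2167 and 3744 against 907, 716, 919 and 794 (1.91 ± 0.21, adjusted p = 0.000107). Klf5 was at 100, 160 and 144 against 945, 797, 1212 and 1320 (-2.98 ± 0.24, adjusted p = 1.57e-05), and Klf4 went the other way (0.90 ± 0.22, adjusted p = 0.0105).

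In the Wnt and Hedgehog list 19 of 35 tested were lower and 8 higher, with a median log2 fold change of -1.12. Gli2, a transcription factor of the Hedgehog pathway, was at 38, 8 and 22 in kidney and 412, 516, 320 and 341 in intestine (-4.29 ± 0.46, adjusted p = 8.62e-05). The Hedgehog target genes Gli1, Ptch1 and Hhip, named after their values were seen, were lower too. Gli1 was at 34, 34 and 69 against 365, 489, 455 and 513 (-3.36 ± 0.30, adjusted p = 2.78e-05). Ptch1, the receptor, was at 308, 146 and 423 against 1693, 2103, 1675 and 1425 (-2.67 ± 0.32, adjusted p = 0.000169), and Hhip, a decoy for the ligand, at 288, 304 and 958 against 3448, 3036, 2876 and 2782 (-2.79 ± 0.37, adjusted p = 0.000306). Wnt2b, a ligand, was at 2, 1 and 7 against 153, 196, 143 and 150 (-5.46 ± 0.49, adjusted p = 2.88e-05). Secreted Wnt antagonists of the Sfrp family differed in sign. Sfrp2 was at 770, 1412 and 1070 in kidney and 5, 2, 3 and 10 in intestine (7.63 ± 0.47, adjusted p = 2.75e-06), and Sfrp4 at 493, 1305 and 1125 against 46, 11, 31 and 23 (5.13 ± 0.49, adjusted p = 4.6e-05). Sfrp1 was lower, at 405, 1058 and 2110 against 3469, 3272, 3060 and 3775 (-1.81 ± 0.43, adjusted p = 0.0107).

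In the BMP and TGF-beta list 18 of 42 tested were lower and 8 higher. Of the 42, 20 were near the read ceiling, and under it 10 of 22 were lower and 3 higher. Grem1, a secreted BMP antagonist, was at 2, 0 and 5 in kidney and 414, 269, 317 and 396 in intestine (-7.04 ± 0.56, adjusted p = 1.38e-05). The ligand genes followed: Inhbb was at 22, 32 and 9 against 685, 921, 716 and 785 (-5.30 ± 0.38, adjusted p = 6.88e-06), Bmp5 at 36, 19 and 49 against 1097, 1218, 1022 and 855 (-4.97 ± 0.31, adjusted p = 2.75e-06), and Bmp7 at 35, 83 and 84 against 1229, 1607, 1245 and 1415 (-4.43 ± 0.30, adjusted p = 5.25e-06). For these 3 ligands every kidney library lay far below every intestine library. The latent TGF-beta binding proteins Ltbp4 and Ltbp1, with the highest means, did not pass (adjusted p = 0.264 and 0.751).

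Of 14 tested genes of retinoic acid metabolism, 5 were lower and 1 higher in kidney, with 2 higher without kidney 3 and none without intestine 1 or 3. Of the 14, 6 were near the read ceiling, and under it 1 of 8 was lower and 1 higher. The 3 retinaldehyde dehydrogenases on the list, the enzymes that make retinoic acid, were lower. Aldh1a3 was at 77, 218 and 304 against 3154, 3040, 2856 and 3534 (-4.18 ± 0.38, adjusted p = 3.34e-05), Aldh1a2 at 93, 486 and 160 against 1706, 1752, 1609 and 1994 (-3.18 ± 0.44, adjusted p = 0.000458), and Aldh1a1 at 127, 496 and 400 against 1570, 1598, 1446 and 1695 (-2.42 ± 0.39, adjusted p = 0.00112). Rdh10, the preceding step from retinol, was at 217, 259 and 214 against 2299, 2441, 2212 and 2634 (-3.38 ± 0.15, adjusted p = 4.18e-07). Among growth factors and guidance cues 12 of 42 were higher and 9 lower, and under the ceiling 6 of 22 were higher and 5 lower. Fgf10 was at 5, 1 and 0 against 230, 200, 168 and 105 (-6.21 ± 0.60, adjusted p = 4.6e-05), Hgf at 52, 24 and 41 against 549, 431, 395 and 194 (-3.27 ± 0.40, adjusted p = 0.000191), and Pdgfra at 742, 411 and 1311 against 5111, 5130, 4580 and 4046 (-2.67 ± 0.32, adjusted p = 0.000173). Pdgfra is also a fibroblast marker. Its partner Pdgfrb, a mural cell receptor, overlapped, at 3983, 1881 and 5039 against 3273, 3307, 2797 and 2608 (adjusted p = 0.714). Vegfd was higher, at 310, 556 and 397 against 85, 45, 86 and 78 (2.51 ± 0.32, adjusted p = 0.00024).

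Of 20 Notch pathway genes tested, 5 were higher in kidney and 2 lower, with 8 higher without kidney 2 and 1 lower without intestine 1, 2 or 3. Hey2 was at 780, 738 and 773 in kidney and 204, 148, 151 and 190 in intestine (2.15 ± 0.19, adjusted p = 2.86e-05). Heyl was at 2368, 2819 and 3052 against 703, 761, 745 and 830 (1.85 ± 0.15, adjusted p = 1.34e-05), and Nrarp, a feedback inhibitor, at 342, 236 and 261 against 102, 121, 118 and 122 (1.25 ± 0.23, adjusted p = 0.00237). Notch3, the receptor typical of arterial muscle, was at 4549, 1546 and 6890 against 2243, 2752, 2214 and 2393, with kidney libraries on both sides of intestine (adjusted p = 0.307). Dll1, a ligand, was lower (52, 148 and 34 against 386, 494, 389 and 412; -2.69 ± 0.43, adjusted p = 0.00101).

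Matrix genes differed in kind. The signal of the major collagens overlapped: Col1a1 was at 3931, 5921 and 10322 in kidney and 4685, 4325, 4212 and 5790 in intestine (adjusted p = 0.332), and Col3a1 had an adjusted p of 0.319. Col1a1 signal was highest in kidney 3 and intestine 4, where 1 read was worth the most in each tissue, so this overlap does not show equal expression. Of 24 fibrillar and associated genes tested, 3 were higher and 9 lower, and 9 were higher without kidney 1. Of the 24, 18 were near the read ceiling, and under it 1 of 6 was higher and 4 lower. Those called include the cross-linking enzyme Loxl2 (11, 45 and 78 against 421, 559, 452 and 536; -3.80 ± 0.53, adjusted p = 0.000467) and, with the opposite sign, Fmod, a small proteoglycan (584, 1746 and 1715 against 149, 191, 130 and 124; 3.03 ± 0.37, adjusted p = 0.0002). Basement membrane chains differed in both directions, with 6 of 24 higher and 7 lower, and 12 of the 24 were near the ceiling. Col4a3, a chain of the collagen network of the glomerular membrane, was at 818, 624 and 787 against 54, 64, 23 and 23 (4.29 ± 0.40, adjusted p = 3.61e-05), and Col4a4 at 235, 249 and 398 against 18, 17, 10 and 9 (4.36 ± 0.38, adjusted p = 2.53e-05). The widespread chain Col4a1 overlapped (adjusted p = 0.701). The laminin chains Lama1, at 16, 25 and 7 against 495, 478, 373 and 331, and Lamb1, at 737, 591 and 820 against 4700, 4638, 4210 and 4225, were lower (-4.77 ± 0.40 and -2.64 ± 0.15, adjusted p = 1.98e-05 and 1.53e-06).

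Elastic fibre genes were lower in 7 of 19 tested and higher in 1 (4 without kidney 1, none without kidney 3 or intestine 2, 3 or 4), led by Fbn2, fibrillin 2 (10, 9 and 14 against 256, 375, 270 and 206; -4.52 ± 0.32, adjusted p = 6.95e-06). Of the 19 elastic fibre genes 14 were near the read ceiling, and 2 of the 5 under it were lower. Integrins were split 5 to 6 over 19. Itga11, a collagen receptor subunit, was at 39, 98 and 103 against 2093, 2524, 1921 and 1739 (-4.79 ± 0.32, adjusted p = 4.64e-06), and Itgbl1, an integrin-related secreted protein, at 292, 876 and 1244 against 27, 9, 11 and 10 (5.62 ± 0.54, adjusted p = 4.6e-05). Among matricellular genes and proteases 11 of 33 were higher and 9 lower, with 7 higher without intestine 3 or 4. Of the 33, 21 were near the read ceiling, and under it 3 of 12 were higher and 1 lower. Spp1, osteopontin, was at 1057, 1672 and 2459 against 61, 18, 21 and 32 (5.75 ± 0.44, adjusted p = 1.04e-05), and Ccn5 at 522, 1781 and 2153 against 69, 54, 31 and 65 (4.56 ± 0.48, adjusted p = 7.96e-05). Tnc, tenascin C, was the reverse, at 591, 719 and 473 against 5073, 4974, 4328 and 4063 (-2.97 ± 0.17, adjusted p = 1.78e-06).

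**Figure D4:**
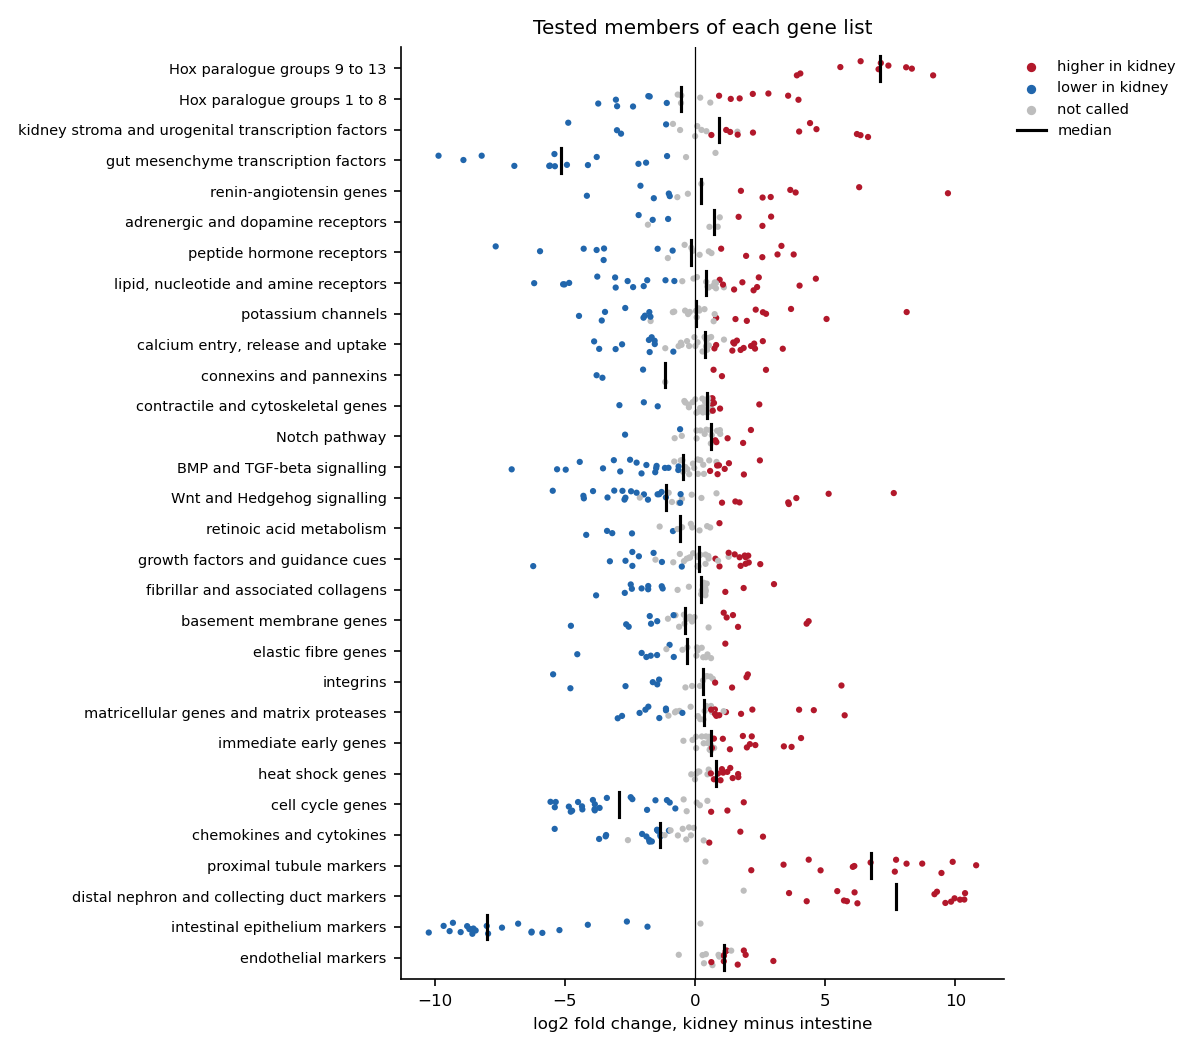
Log2 fold change of each tested member of 30 gene lists (kidney minus intestine), coloured by call, with the list median as a black bar. Posterior Hox genes and nephron markers lie right of 0, gut mesenchyme factors and intestinal epithelium markers left, and contractile genes close to 0; values of genes at 0 in 1 tissue depend on the pseudocount of 1.

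Lists of genes that respond to handling and stress held calls in 1 direction. Of 28 immediate early genes tested 12 were higher and none lower, and of 18 heat shock genes 11 were higher and none lower, with median log2 fold changes of 0.62 and 0.80. Of these, 22 and 13 were near the read ceiling; under it 5 of 6 and 2 of 5 tested were higher. The other 16 immediate early and 7 heat shock genes did not pass, and without kidney 1 the immediate early count was 20, while without kidney 2 it was 14 with 1 lower. Nr4a2, an orphan nuclear receptor, was at 2818, 650 and 2242 in kidney and 116, 147, 108 and 119 in intestine (3.71 ± 0.43, adjusted p = 0.00015). Egr2, under the ceiling, was at 584, 823 and 1018 against 76, 123, 80 and 38 (3.41 ± 0.38, adjusted p = 0.000104). Egr1 and Jun, with the highest means, did not pass (adjusted p = 0.0989 and 0.079). Dnaja1, a heat shock cochaperone under the ceiling, was at 1576, 998 and 1281 against 469, 480, 465 and 438 (1.45 ± 0.18, adjusted p = 0.00022). Dnajb1 was at 2157, 2165 and 2972 against 741, 764, 761 and 768 (1.66 ± 0.16, adjusted p = 3.7e-05). Hspa1b, at 1062, 1491 and 2229 against 480, 502, 453 and 498 (1.66 ± 0.23, adjusted p = 0.000444), shares nearly identical sequence with Hspa1a, so how their reads were divided is uncertain.

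Promoters of Dnaja1 and Hspa1b are shown as examples of genes called higher in kidney that hold the letters marked below. Dnajb1, also called higher, does not hold them. Capitals mark GAANNTTC, the letters of a pair of heat shock factor units, which reads the same on both strands; RefSeq windows of GRCm38.p6 are at chr4:40722218-40722517 on the plus strand and chr17:34959189-34959488 on the minus strand.
Dnaja1 promoter: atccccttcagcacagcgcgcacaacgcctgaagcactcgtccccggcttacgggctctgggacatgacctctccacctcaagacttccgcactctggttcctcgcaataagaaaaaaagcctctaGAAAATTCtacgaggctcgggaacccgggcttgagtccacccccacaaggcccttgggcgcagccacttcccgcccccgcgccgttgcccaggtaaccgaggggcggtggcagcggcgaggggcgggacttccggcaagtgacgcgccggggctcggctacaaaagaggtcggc
Hspa1b promoter: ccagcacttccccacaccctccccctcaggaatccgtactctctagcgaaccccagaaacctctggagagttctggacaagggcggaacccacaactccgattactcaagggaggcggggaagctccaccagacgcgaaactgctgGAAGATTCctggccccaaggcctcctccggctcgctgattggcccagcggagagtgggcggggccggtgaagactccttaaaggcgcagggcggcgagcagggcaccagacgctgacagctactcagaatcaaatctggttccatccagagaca
Of the 18 listed heat shock genes 14 had a window, and 10 of these held the letters in any of their windows. Among all single windows the share was 7.89%, which is not a like measure where a gene has several windows. The letters stood in 5 of 8 genes called higher in kidney and in 5 of 6 not called, so their presence did not follow the call.

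Cell cycle genes were lower in kidney, 22 of 30 tested, with 3 higher (1 without intestine 1 or 2) and a median log2 fold change of -2.93. Aurkb, a mitotic kinase, was at 15, 8 and 0 in kidney and 210, 165, 355 and 290 in intestine (-5.55 ± 0.82, adjusted p = 0.000623), and Birc5 at 18, 15 and 0 against 234, 202, 339 and 347 (-5.35 ± 0.89, adjusted p = 0.00133). Ccnd2, a G1 cyclin, was higher, at 2142, 2064 and 2358 against 1362, 1121, 1489 and 1800 (0.62 ± 0.17, adjusted p = 0.0222), a call lost with quantile normalization (0.38, adjusted p = 0.135) and without kidney 3 or any of intestine 1, 2 and 3. Intestinal epithelium markers, given below, were present in the same intestine libraries, and their part was not tested. Chemokines and cytokines were lower in 15 of 29 tested and higher in 3. Cxcl12 was at 903, 1537 and 1723 against 2747, 2831, 2346 and 2823 (-1.0 ± 0.22, adjusted p = 0.006), Csf1 at 1045, 774 and 756 against 2158, 2370, 1975 and 2038 (-1.33 ± 0.16, adjusted p = 0.000177), and Cxcl13 at 10, 38 and 5 against 136, 214, 170 and 189 (-3.68 ± 0.56, adjusted p = 0.000818). Interferon and antigen presentation genes were near the background, 5 of 37 higher and 6 lower, with 10 lower without kidney 2 and 3 without kidney 3. Rsad2, an antiviral enzyme, stood out among them at 444, 915 and 504 against 50, 33, 34 and 42 (3.88 ± 0.32, adjusted p = 1.63e-05).

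Of 40 nuclear oxidative phosphorylation genes 4 were higher and none lower, but 15 were higher without kidney 1 and 1 or 2 without any 1 intestine library. Of 18 clock genes 4 were higher and 2 lower, with 7 higher without kidney 2 and 0 or 1 lower without any 1 library. Of 28 lipid genes 2 were higher and 7 lower. Lower lipid genes numbered 12 without kidney 2, 3 without intestine 2 and 4 without intestine 3, and 4 were higher without kidney 1. Ppargc1a, a coactivator of mitochondrial biogenesis, was at 604, 454 and 527 in kidney and 70, 32, 71 and 42 in intestine (3.34 ± 0.33, adjusted p = 4.97e-05). Fabp3, a fatty acid carrier, was at 62, 98 and 61 against 2, 5, 3 and 9 (3.81 ± 0.51, adjusted p = 0.000337).

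Markers of the epithelium of each organ were present in its libraries and made up most of the largest differences. Of the 10 largest rises taken by the rule, 8 were nephron genes, and 14 of 15 proximal tubule and 15 of 16 distal nephron markers tested were higher in kidney. As with the posterior Hox genes, markers near 0 in intestine had enough signal to be tested only through kidney. The summed proximal list was at 6714 to 11353 in kidney and 1073 to 1093 in intestine, and the distal list at 5106 to 23839 against 85 to 141. Slc34a1, the phosphate transporter of the proximal tubule, was at 1780, 1303 and 2420 in kidney and at 0 in all 4 intestine libraries, at least 1280-fold higher (adjusted p = 1.28e-07). Slc12a1, the salt transporter of the thick ascending limb, was uneven across kidney libraries, at 840, 787 and 5538, against 1, 0, 0 and 0 (adjusted p = 4.28e-06). Umod, uromodulin of the same segment, was at 966, 1820 and 3438 against 3, 0, 0 and 3 (9.83 ± 0.66, adjusted p = 4.67e-06), and Aqp2, the collecting duct water channel, at 272, 1529 and 1152 against 0 in all 4, at least 689-fold higher (adjusted p = 2.5e-06). Cyp4b1, on the proximal list, did not pass (adjusted p = 0.111). Of 8 podocyte markers tested 3 were higher, and of 8 renin cell and mesangial markers 7.

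In intestine, 22 of 23 intestinal epithelium markers were higher than in kidney, with summed signal of 12692 to 15660 against 501 to 1048, and 9 of the 23 were at 0 in every kidney library. Those 9 had enough signal to be tested only through intestine. Cdh17, an intestinal cadherin, was at 1274, 933, 1705 and 1005 and at 0 in kidney, at least 546-fold lower there (adjusted p = 8.88e-08). Cps1, a mitochondrial enzyme of liver and intestinal epithelium, was at 2698, 2088, 3198 and 2105 against 0, at least 1120-fold lower (adjusted p = 3.29e-08), and Dmbt1, a mucosal scavenger protein, at 4554, 4123, 4305 and 4643 against 1, 0 and 0, where 2 kidney reads give a ratio of 13200 with a counting interval of 3660 to 109000 (adjusted p = 3.29e-08). Pancreatic enzyme genes, a list made after the values were seen, were also there: all 16 were lower in kidney, with sums of 5584 to 11729 in intestine and 167 to 211 in kidney. Cel, the bile salt lipase, was at 1634, 1274, 645 and 1159 in intestine and 0, 1 and 0 in kidney (adjusted p = 3.21e-07). Visceral smooth muscle markers were lower in kidney in 9 of 12 tested, a list that shares Foxf2, Nkx2-3, Barx1 and Grem1 with lists above.

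Endothelial markers were higher in kidney in 10 of 18 tested, with sums of 9875 to 18260 against 5834 to 8457, but the count was 7 without kidney 2 and 4, 3 and 6 without intestine 2, 3 and 4. Emcn was at 731, 1309 and 753 in kidney and 174, 77, 81 and 137 in intestine (3.01 ± 0.34, adjusted p = 0.000122). Fibroblast sums overlapped, at 11806 to 27802 and 18367 to 21099, with 3 of 15 higher and 4 lower, and 9 higher without kidney 1. Pi16, a marker of adventitial fibroblasts, was at 482, 1418 and 1707 against 68, 42, 41 and 47 (4.41 ± 0.42, adjusted p = 4.08e-05). Pericyte markers were higher in 6 of 13, among them Rgs5 given above, and lower in 3. The higher count was 9 without kidney 2 and 4 without kidney 1, kidney 3 or intestine 2, 3 or 4. Of the 13, 9 were near the read ceiling, and under it 1 of 4 was higher and 1 lower. Among those lower, Kcnj8, a subunit of ATP-sensitive potassium channels, was at 319, 440 and 362 against 1217, 1276, 1164 and 1358 (-1.75 ± 0.16, adjusted p = 3.61e-05). Immune sums ran from 293 to 2201 in kidney and 1362 to 2801 in intestine. Igkc, a plasma cell gene, was at 5, 326 and 2 in kidney and 393, 323, 408 and 516 in intestine, so kidney 2 overlapped intestine. The part of any of these cell types in the gene differences above was not tested.

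The difference between kidney and intestine was set against that between bladder and stomach, a second urogenital and gut pair that shares no library with it. The difference of the differences was called for 3963 of 16079 genes (24.6%), 2101 (13.1%) with a higher and 1862 (11.6%) with a lower kidney minus intestine value. Of 3761 genes called between kidney and intestine and tested in both pairs, 1150 were called the same way between bladder and stomach and 489 the other way. The share called between bladder and stomach over all genes is not given, so agreement between the pairs cannot be read from these counts. Hoxa10 was at 1089, 1092 and 856 in bladder and 0 in all stomach libraries, and the difference between the pairs, -0.83 ± 0.90, did not pass (adjusted p = 0.556). Hoxc10, at 23, 40 and 60 in bladder, differed more between kidney and intestine (2.82 ± 0.62, adjusted p = 0.00456). Gata4, at 2046 as a mean in stomach and 5.7 in bladder, had a difference of 0.41 ± 1.04 that did not pass (adjusted p = 0.823).

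Other kidney and intestine differences were not matched. Foxf2 was at 626, 1325 and 413 in bladder and 964, 761 and 816 in stomach, so that kidney alone of the 4 tissues was near 0 (-9.58 ± 0.61, adjusted p = 4.14e-07). Ren1 was at 30, 57 and 8 in bladder and 94, 67 and 163 in stomach (11.72 ± 0.96, adjusted p = 2.73e-06). Gja1 was at 1034, 1805 and 822 in bladder and 1035, 1008 and 898 in stomach (-3.79 ± 0.34, adjusted p = 5.12e-06), and Sfrp2, low in intestine alone, was at a mean of 1339 in bladder and 831 in stomach (6.95 ± 0.58, adjusted p = 2.99e-06). Of 36 Wnt and Hedgehog genes tested 18 had a lower and 3 a higher value than the bladder and stomach pair; of 42 BMP and TGF-beta genes 18 and 1; of 30 chemokines and cytokines 23 and 1; of 18 endothelial markers none and 14. For immediate early genes 4 of 30 were lower and none higher, and for cell cycle genes 1 of 30 in each direction.

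The largest of these differences ran both ways. Mab21l2, a gut mesenchyme gene, was at 575, 649, 546 and 616 in intestine, 0, 0 and 2 in kidney, 71, 68 and 38 in bladder and 0 in stomach (-14.55 ± 0.67, adjusted p = 6.09e-08). Glp2r, the receptor of glucagon-like peptide 2, had the same pattern (266, 269, 217 and 167 in intestine, 35, 90 and 24 in bladder; -12.93 ± 0.73, adjusted p = 1.39e-07). Kcnj16, at 0 in bladder and at 503, 579 and 474 in stomach, had the largest value in the other direction (17.14 ± 0.65, adjusted p = 1.39e-08). Atp4a, the gastric proton pump, was at 30, 199 and 156 in kidney, 7, 2, 9 and 13 in intestine and 4803, 4147 and 3422 in stomach (15.03 ± 1.06, adjusted p = 1.01e-06). Where a group is at 0 these values depend on the pseudocount and are no bound.

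**Figure D5:**
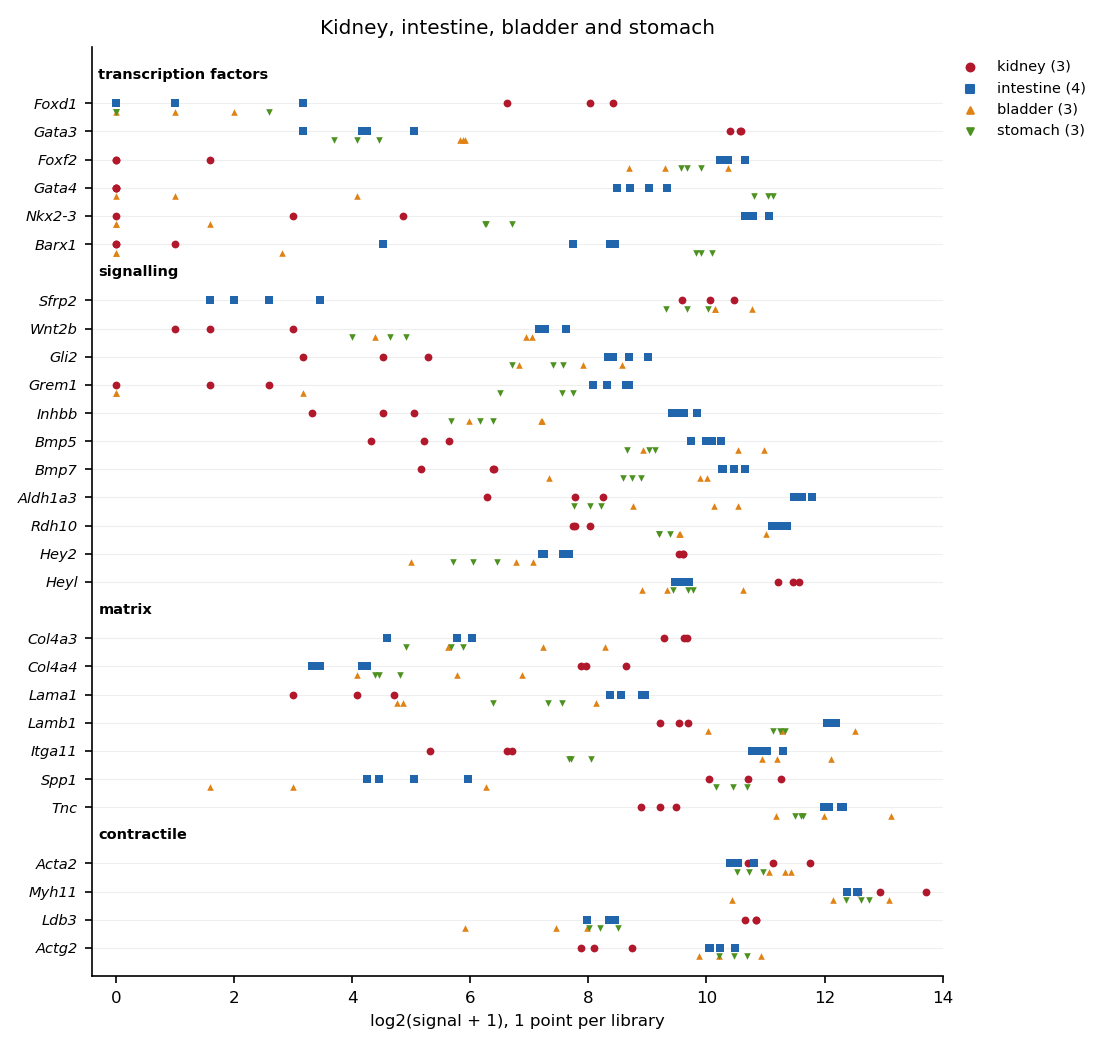
Signal as log2(signal + 1), 1 point per library, in kidney (red circles), intestine (blue squares), bladder (orange triangles) and stomach (green triangles) for transcription factors, signalling, matrix and contractile genes. Kidney libraries lie below all others for Foxf2, Inhbb and Bmp5, Sfrp2 is low in intestine alone, and Acta2 overlaps across the 4 tissues.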

How the data were processed

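RNA-seq libraries of sorted arterial smooth muscle cells were used from kidney (3), intestine (4), bladder (3) and stomach (3). The genome build mm39 and the tools featureCounts 2.0.4, STAR 2.7.10a, DESeq2 1.36.0, DESeq, Trimmomatic 0.39 and Picard 3.0.0 are named without their roles, per the submitters' processing notes. The deposited values are a signal, whole numbers scaled per library by the authors, as judged from the values; the design had assumed counts, so limma replaced the count test as the main one. The worth of 1 read was found per library by a likelihood search, and dividing by it gave rebuilt reads, approximate where the worth is below 1; a listed 0 can then hide 1 read. Floors and intervals cover counting error alone, since amplified reads need not be separate molecules.

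limma-trend (limma 3.58.1, R 4.3.3) was fitted on log2(signal + 1) to the 7 libraries, for genes with signal of at least 10 in at least 3 of them, with Benjamini-Hochberg adjusted p under 0.05 as the call. Fold changes are kidney minus intestine, ± is the standard error, and changes of low genes are understated. The contrast with bladder minus stomach used 13 libraries. In simulated data for kidney against intestine, with 14850 unchanged genes tested, 62.7% of genes changed 2-fold and 100% of those changed 4-fold were recovered, and 8 unchanged genes were called. The simulation gave every gene and library the same dispersion, with no read ceiling, length difference or outlying library such as kidney 2. These rates therefore need not hold for the real libraries. edgeR 4.0.16 and DESeq2 1.42.0 on rebuilt reads were alternatives. Exonic lengths came from GENCODE M21, matched for 96.2% of genes. The table held 0 genes of the mitochondrial chromosome. Promoter windows came from RefSeq (GRCm38.p6). Figures used matplotlib.

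The members, lists and tests were chosen with earlier results of these data known. Named genes were the 10 largest changes in each direction among called genes with non-overlapping groups and a mean of at least 100, up to 4 called members and the 2 highest means of each list described, Acta2, Cspg4 and Myh11, and the 4 largest differences each way against bladder minus stomach; not every gene the rule took is described, and others are marked as named after their values were seen. Some genes the rule took are not reported here.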

Additional observations from a re-analysis of the deposited data

Results flagged for a closer look

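In 4 of 140 named genes, 1 intestine library stood apart from the other 3 by Dixon's criterion at the 95% level, which chance alone meets in about 1 of 20 groups. Cysltr1 was at 143 in intestine 4 and 267 to 288 in the others. P2ry1 was at 535 in intestine 4 and 737 to 774 in the others. Kcnk3 was at 1323 in intestine 4 and 942 to 1006 in the others. Itgbl1 was at 27 in intestine 1 and 9 to 11 in the others. For 3963 genes the kidney minus intestine difference departed from the bladder minus stomach difference in the limma test of the difference itself.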

How the results depend on the processing

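Counts of genes differing stayed within 1.5 times of those reported under every alternative that was run, except the joint fit of all 22 libraries, which called 2079 genes between kidney and intestine and 1935 in the contrast with bladder and stomach; the cause was not tested. Leaving out 1 library at a time gave 3380 (intestine 3) to 5417 (kidney 2) genes between kidney and intestine, and 3126 to 5213 in the contrast. edgeR on rebuilt reads called 4354 genes between kidney and intestine and DESeq2 5207. Deviations of same-numbered kidney and intestine libraries correlated at 0.083, -0.114 and -0.034, within the range of differently numbered ones (-0.237 to 0.272). Whether the samples were paired cannot be told from these values. With the number as a block 3555 and 3468 genes were called. Cspg4 was the named gene that turned direction with a call: its log2 fold change was 0.997 without kidney 2, with or without genes near the read ceiling, an alternative chosen after seeing the data, and ran from -1.637 to 0.997 as single libraries were left out. With edgeR it was 0.47, without a call. Of 132 named genes called, 104 were called under all 19 alternatives that tested them, and the joint fit lost the call of 27, among them Adra1a, Adra2c, Drd1, Gja4, Gja5 and Gli1.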
